A study of Homo sapiens with 8 samples.

Results

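The spliceosome component genes are 44 protein-coding genes whose products build the small nuclear ribonucleoprotein particles (snRNPs), the PRP19 complex and the RNA helicases of the major spliceosome. The rule that picked them names gene symbols and uses no measured value, although it was set with earlier results of these data known. Each of the 44 symbols had a row both in the count table of the TFAP2C siRNA experiment, which lists 42125 genes, and in that of the SAE2 kd experiment, which lists 23393. All 44 passed the filter on low counts in both, among 14991 and 13381 genes tested. By role they are 3 proteins of U1 snRNP, 7 of the Sm core, 10 of U2 snRNP, the 2 subunits of U2AF, 6 proteins of U5 snRNP, 6 of U4/U6 and the tri-snRNP, 6 of the PRP19 complex and its partners, and 4 DEAD/DEAH-box helicases. Of these, 18 encode proteins listed among those recovered together with HA-tagged TFAP2C from chromatin in a proteomics experiment that was not analysed here. PLRG1, SF3A1 and DDX23 are among the 18.

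The spliceosome removes introns from pre-mRNA and assembles anew on each intron. U1 snRNP binds the 5′ splice site, U2AF binds the polypyrimidine tract and the 3′ splice site, and U2 snRNP, with its SF3A and SF3B subcomplexes, binds the branch point. The tri-snRNP of U4/U6 and U5 then joins, helicases unwind the RNA pairs that hold the complex inactive, and the PRP19 complex stabilizes the activated form. The Sm proteins form the ring shared by the U1, U2, U4 and U5 snRNPs. These genes are expressed in nearly all dividing cells, including colorectal cancer cells.

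mRNA was sequenced from HCT116, a human colorectal carcinoma cell line, in 4 groups of 2 replicates. All groups carried the same stably expressed Tet-On shRNA against SAE2, a name of UBA2, which is a subunit of the E1 enzyme that activates SUMO. The TFAP2C siRNA and control siRNA groups were collected 48 hrs after transfection, TFAP2C being the transcription factor AP-2 gamma. In the other experiment the SAE2 kd group was given doxycycline at 1 μg/mL for 5 days to induce the shRNA and its control group DMSO for 5 days, so doxycycline itself and the shRNA cannot be told apart. Nothing in the labels says that replicates came from separate cultures, so the p-values measure only the spread between these libraries, which may be technical.

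Total counts were between 20785035 and 24465109 per library in the TFAP2C siRNA experiment and between 18213739 and 20607813 in the SAE2 kd experiment. The targeted genes were examined first. TFAP2C was at 18.9 and 20.5 counts per 1000000 reads (CPM, scaled by TMM) in control siRNA and at 3.46 and 4.30 CPM in TFAP2C siRNA (log2 fold change -2.34 ± 0.13 SE, adjusted p = 7.67e-06). UBA2 mRNA was at 162 and 146 CPM in control and at 147 and 153 CPM in the libraries labelled SAE2 kd. The groups overlapped, and the log2 fold change of UBA2 was -0.036 (95% interval -0.15 to 0.078, adjusted p = 0.766). The label SAE2 kd is therefore used below only as a label, and a direction given for it is that of the libraries so labelled. The epithelial markers EPCAM, KRT8 and KRT18 were high in all 8 libraries, at 183 or more CPM of total counts, and the intestinal factor CDX2 was at 18.9 to 23.3 CPM, whereas the intestinal marker VIL1 was at or below 0.144 CPM. Of the markers of other cell types, the fibroblast collagen COL1A1 was at 42.3 to 48.2 CPM in the TFAP2C siRNA experiment and 14.8 to 22.0 CPM in the SAE2 kd experiment, with 3 or 4 of the 6 fibroblast markers at 0 in each library. The summed 5 leukocyte markers were at 0.695 to 1.37 and 5.47 to 6.77 CPM, with PTPRC at most 0.800 CPM, and the summed 3 endothelial markers at 1.61 to 2.25 and 0.160 to 0.582 CPM. The part of such signals in the results was not tested.

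The spliceosome genes were strongly expressed. Per kilobase of the gene length that each table gives, the median member was at percentile 88.1 of the genes tested in the TFAP2C siRNA experiment and at percentile 91.2 in the SAE2 kd experiment. SNRPD2, a protein of the Sm ring, had the highest level of all members in both, with 161 ± 7.93 CPM per kb (SD over 4 libraries) in the former and 217 ± 1.55 CPM per kb in the latter. Its libraries did not overlap with those of the next member in either table. In the TFAP2C siRNA experiment SNRPB, which encodes SmB/B′, followed with 115 ± 8.24 CPM per kb. The U2 protein SF3B5 (91.2 ± 5.74) and SNRNP70, the 70K protein of U1 snRNP (87.8 ± 1.08), came next, and their libraries overlapped. In the SAE2 kd experiment PRPF8, the large U5 protein at the catalytic core, was second with 155 ± 6.10 CPM per kb, followed by the U2 protein SF3B2 with 129.5 ± 3.65 CPM per kb. With the exon lengths of GENCODE, SNRPD2 was again the highest member in both tables, while SNRPB went from rank 2 to rank 19 of 44 (28.4 CPM per kb) and SF3B2 from rank 3 to rank 15 (51.9 CPM per kb).

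At the low end, SNRPG of the Sm ring was at 11.5 ± 0.612 CPM per kb in the SAE2 kd experiment, the lowest member there, below the PRP19-associated CRNKL1 with 15.4 ± 0.250 CPM per kb. With GENCODE exon lengths SNRPA1, at 4.46 CPM per kb, was below SNRPG instead. U2AF1, the small subunit of U2AF, was the lowest in the TFAP2C siRNA experiment with 0.146 ± 0.0233 CPM per kb. It had 45 and 28 reads in control siRNA and 35 and 41 reads in TFAP2C siRNA, against 3567 and 4220 reads in control and 3596 and 3706 reads in SAE2 kd. The former table also lists U2AF1L5, a near-identical second copy on chromosome 21, with 12 to 24 reads, so the value of U2AF1 there is uncertain. Small Sm genes have pseudogenes listed in RefSeq, 20 for SNRPG, 11 for SNRPE, 4 for SNRPF and 20 for the U1 gene SNRPC, and how reads shared with them were counted was not stated. Across members, control levels per kb in the separate tables had a Pearson r of 0.62 on the log2 scale (n = 44 genes), and 0.76 without U2AF1, as a description only, because lengths and annotation differ between the tables.

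**Figure D1:**
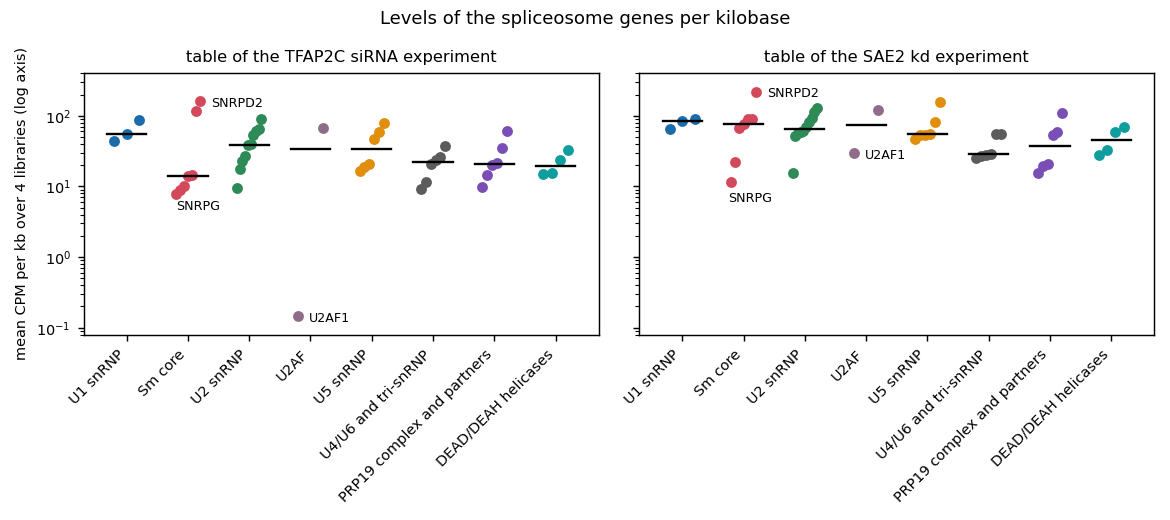
Mean CPM per kb of gene length over the 4 libraries of each experiment, on a log axis, with 1 point per spliceosome gene and a black line at the median of each group of genes. SNRPD2 was the highest in both tables (161 and 217 CPM per kb), and U2AF1 stood at 0.146 CPM per kb in the TFAP2C siRNA table only.

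The comparison of TFAP2C siRNA with control siRNA addressed how mRNA profiles respond to loss of the transcription factor. None of the 44 members passed the threshold (adjusted p under 0.05, quasi-likelihood test of edgeR with Benjamini-Hochberg adjustment over all genes tested), where 0.74% of all genes tested did, 39 higher (0.26%) and 72 lower (0.48%). By the Wald test of DESeq2, 0 of 43 members with an adjusted p passed. At an unadjusted p under 0.05 there were 3 members, EFTUD2, SNRPC and SF3A1, against 12.6% of all genes. The median log2 fold change of the members was 0.031, against -0.0038 over all genes tested. For 40 of the 44 members the whole 95% interval of the fold change lay within 1.25-fold in either direction. This was so for 45.7% of all genes tested. The exceptions among the members were SNRPC, SNRPF, U2AF1 and EFTUD2. Members had a median SE of 0.076, against 0.0995 over all genes tested. A smaller SE narrows an interval, so these shares do not show that members changed less. In bulk RNA a share of cells with less of an mRNA and less of it in every cell cannot be told apart.

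EFTUD2, the GTPase of U5 snRNP, had the largest positive estimate. It was at 154 and 159 CPM in control siRNA and at 192 and 169.5 CPM in TFAP2C siRNA (log2 fold change 0.21 ± 0.075 SE, adjusted p = 0.277). Both TFAP2C siRNA libraries were above both controls. SNRPC, the U1 protein that helps recognize the 5′ splice site, was at 60.6 and 68.1 CPM in control siRNA and at 76.0 and 70.2 CPM in TFAP2C siRNA (log2 fold change 0.19 ± 0.083 SE, adjusted p = 0.384). SF3A1, a scaffold of the SF3A subcomplex of U2 snRNP, was at 227 and 238 CPM in control siRNA and at 273 and 249 CPM in TFAP2C siRNA (log2 fold change 0.17 ± 0.071 SE, adjusted p = 0.364). For SNRPC and SF3A1 too the groups did not overlap, which was also so, in this direction, for 22.4% of all genes.

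SF3B1, the branch point binding protein that is mutated in several blood cancers, had the most negative estimate. Its values were 594 and 569 CPM in control siRNA and 478 and 594 CPM in TFAP2C siRNA (log2 fold change -0.12 ± 0.091 SE, 95% interval -0.32 to 0.081). Replicate 2 of TFAP2C siRNA was level with the higher control, and only replicate 1 was below both. Without replicate 1 the log2 fold change of SF3B1 was 0.031, and without replicate 2 it was -0.28. PRPF3, a U4/U6 protein, was at 65.0 and 62.9 CPM in control siRNA and at 58.5 and 60.3 CPM in TFAP2C siRNA (log2 fold change -0.11 ± 0.074 SE). The Sm protein gene SNRPD3 was at 41.0 and 40.0 CPM in control siRNA and at 39.5 and 36.8 CPM in TFAP2C siRNA (log2 fold change -0.086 ± 0.082 SE). Both TFAP2C siRNA libraries were below both controls for PRPF3 and SNRPD3, with adjusted p of 0.583 and 0.705.

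PLRG1, a WD40 protein of the PRP19 complex, was at 108 and 107 CPM in control siRNA and at 100.1 and 109.9 CPM in TFAP2C siRNA, with a log2 fold change of -0.037 (95% interval -0.20 to 0.12). DDX23, the helicase of U5 snRNP also known as PRP28, was at 111 and 115 CPM in control siRNA and at 118 and 109 CPM in TFAP2C siRNA, with a log2 fold change of -0.00031 (95% interval -0.16 to 0.16). In both genes the control values lay between those of the TFAP2C siRNA libraries. By group of genes, the median log2 fold change was -0.0026 in U1 snRNP, 0.024 in the Sm core, 0.082 in U2 snRNP, 0.055 in U5 snRNP, 0.028 in U4/U6 and the tri-snRNP, 0.017 in the PRP19 complex and 0.023 in the helicases. With library sizes scaled by total counts alone the medians of the Sm core, the tri-snRNP, the PRP19 complex and the helicases were below 0, so no direction is given for them. In all, 13 members were higher and 4 lower without overlap of the groups (38.6% of members, against 44.7% of all genes tested).

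**Figure D2:**
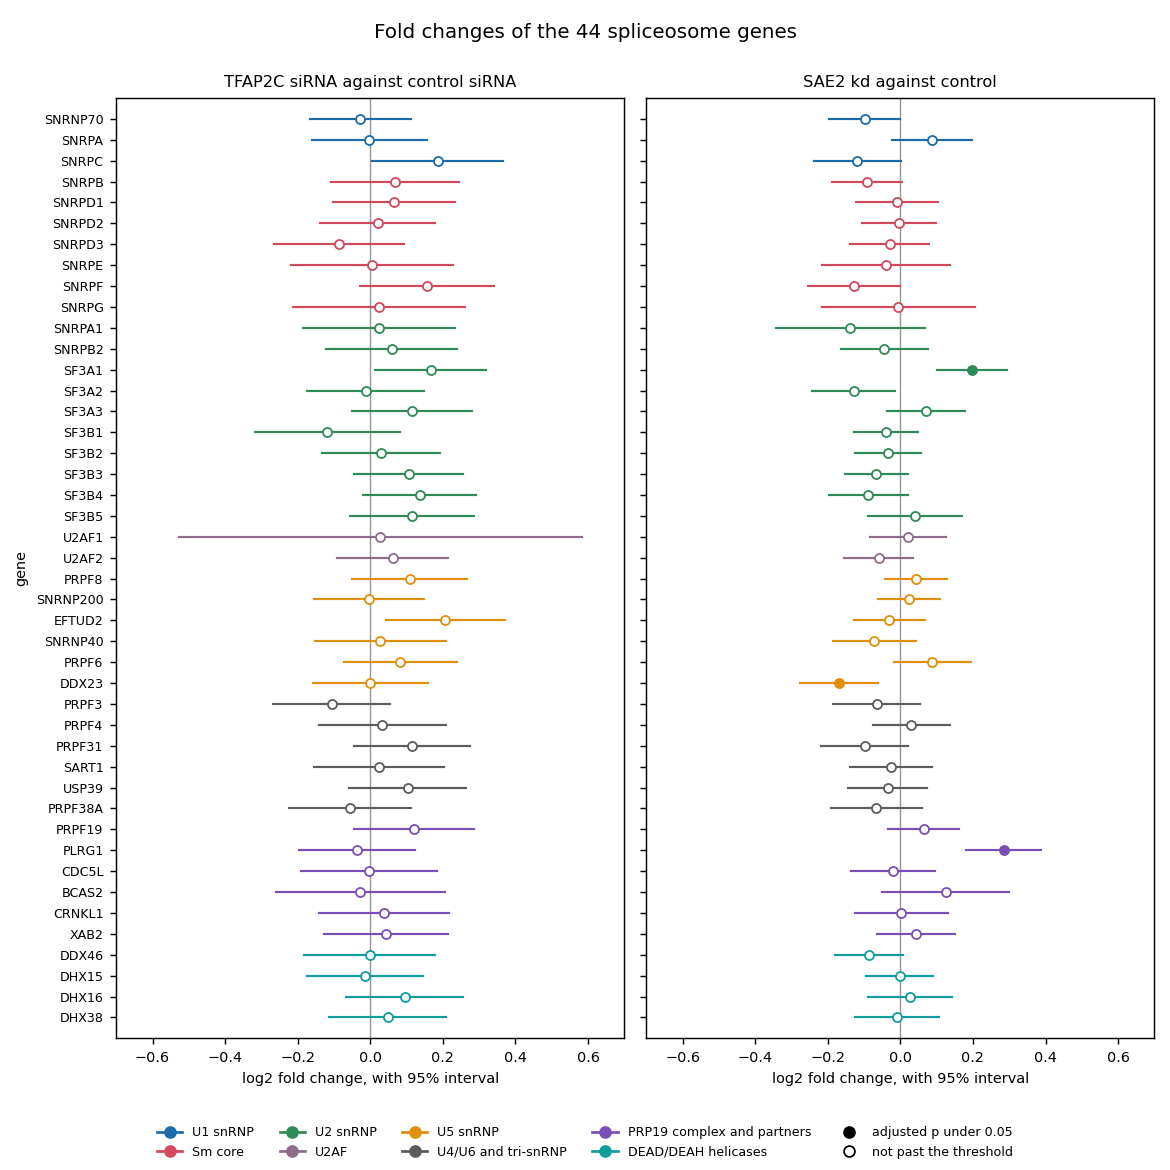
Log2 fold change of each of the 44 spliceosome genes with its 95% interval in both comparisons, coloured by group of genes, with filled points for an adjusted p under 0.05. No point is filled for TFAP2C siRNA, and PLRG1, SF3A1 and DDX23 are filled for SAE2 kd. The wide interval on the left is U2AF1, at 28 to 45 reads per library.

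The replicates of TFAP2C siRNA differed more from each other than those of the other groups. The variance between these libraries was 9.12 times that of sampling noise (Pearson chi-square per degree of freedom over 14707 genes). This ratio of variances was 2.65 for the control siRNA libraries and 2.55 and 2.77 for the groups of the SAE2 kd experiment. In the spliceosome genes replicate 1 was above replicate 2 in 32 of 44, with a median difference of 0.13 on the log2 scale, against 0.021 over all genes. The median member was 0.11 above the control mean on the log2 scale in replicate 1 and 0.020 above it in replicate 2. Regardless of sign, the median difference of these replicates was 0.136 in the members and 0.133 over all genes. The fold change was smaller than the difference of the TFAP2C siRNA libraries in 37 of 44 members. The like count was 17 for control siRNA, 19 for control and 24 for SAE2 kd. The shares of all genes for these counts and for the 32 of 44 were not taken. PRPF8 was at 959.9 CPM in replicate 1 and 864 CPM in replicate 2, with controls at 835 and 857 CPM. PRPF19, the ubiquitin ligase of the PRP19 complex, was at 198 and 173 CPM, with controls at 169 and 173 CPM.

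Without replicate 2 of TFAP2C siRNA, 10 of 44 members passed the threshold, where 18.2% of all genes tested did. EFTUD2, PRPF8, PRPF19, SF3A1, SF3A3, SF3B3, SF3B4, SNRPB and SNRPC were then higher and SF3B1 lower. Without replicate 1 of TFAP2C siRNA, none passed, against 3.49% of all genes. In both fits the lone TFAP2C siRNA library was assumed to vary like the other group.

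**Figure D3:**
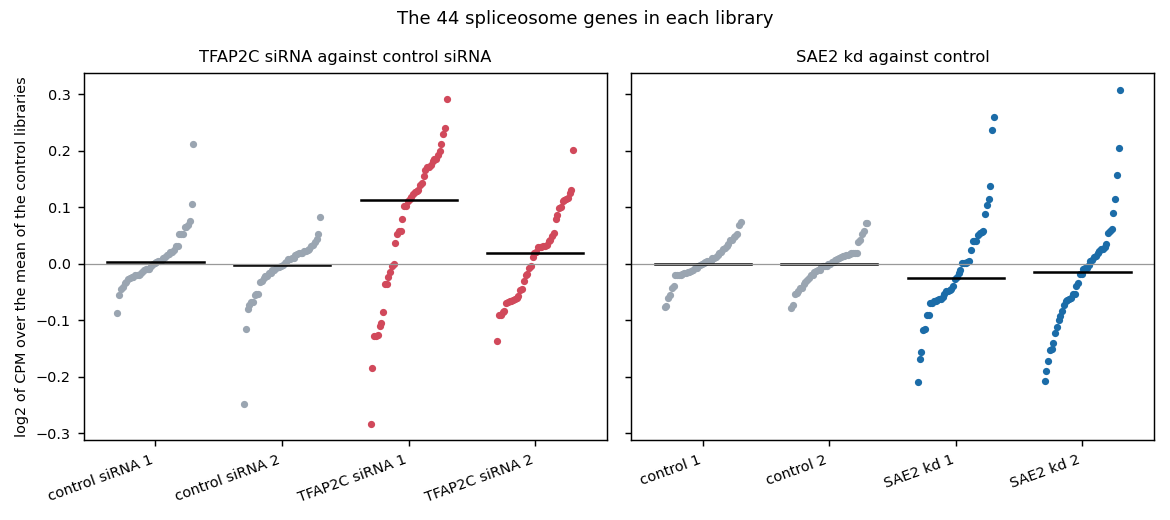
Log2 of the CPM in each library over the mean of its 2 control libraries, with 1 point per spliceosome gene in rising order and a black line at the median. The median is 0.11 in TFAP2C siRNA replicate 1 and 0.020 in replicate 2, whereas both SAE2 kd libraries lie close to 0 with medians of -0.025 and -0.014.

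The comparison of the libraries labelled SAE2 kd with control was made to ask how mRNA profiles respond to a loss of SUMOylation, which these files do not measure. Here 3 of 44 members passed the threshold, where 9.98% of all genes tested did, 738 higher (5.52%) and 598 lower (4.47%). Of these calls 55.2% were higher (42.2% with library sizes scaled by total counts alone). PLRG1 and SF3A1 rose and DDX23 fell. The median log2 fold change of the members was -0.027, against -0.00042 over all genes tested. The 95% interval lay within 1.25-fold in 42 of 44 members, all but PLRG1 and SNRPA1, against 58.9% of all genes tested. The median SE was again smaller in the members, 0.053 against 0.079, so these shares are not at like precision.

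PLRG1 had the largest change of any member. It was at 162 and 159 CPM in control and at 192 and 199 CPM in SAE2 kd (log2 fold change 0.28 ± 0.051 SE, 95% interval 0.18 to 0.39, adjusted p = 0.000180), a level 21.8% higher. Both SAE2 kd libraries were above both controls and PLRG1 passed the threshold under each alternative run. SF3A1 was at 296 and 283 CPM in control and at 341 and 323 CPM in SAE2 kd (log2 fold change 0.20 ± 0.048 SE, 95% interval 0.100 to 0.29, adjusted p = 0.00542), and the groups did not overlap. The call of SF3A1 was lost without control replicate 2 (adjusted p = 0.103), without SAE2 kd replicate 1 (0.0545) and in a fit of all 8 libraries (0.0694).

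DDX23 was at 160.0 and 159.8 CPM in control and at 142 and 142 CPM in SAE2 kd (log2 fold change -0.17 ± 0.052 SE, 95% interval -0.28 to -0.063, adjusted p = 0.0334), a level 11.1% lower. For DDX23 too the groups did not overlap, which was also so for 51.3% of all genes tested, in either direction. DDX23 did not pass by DESeq2 (adjusted p = 0.0866), with the replicate number as a block (0.0551), in the fit of all 8 libraries (0.134) or without any 1 of the 4 libraries (0.0752 to 0.165), while its log2 fold change stayed between -0.171 and -0.167.

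**Figure D4:**
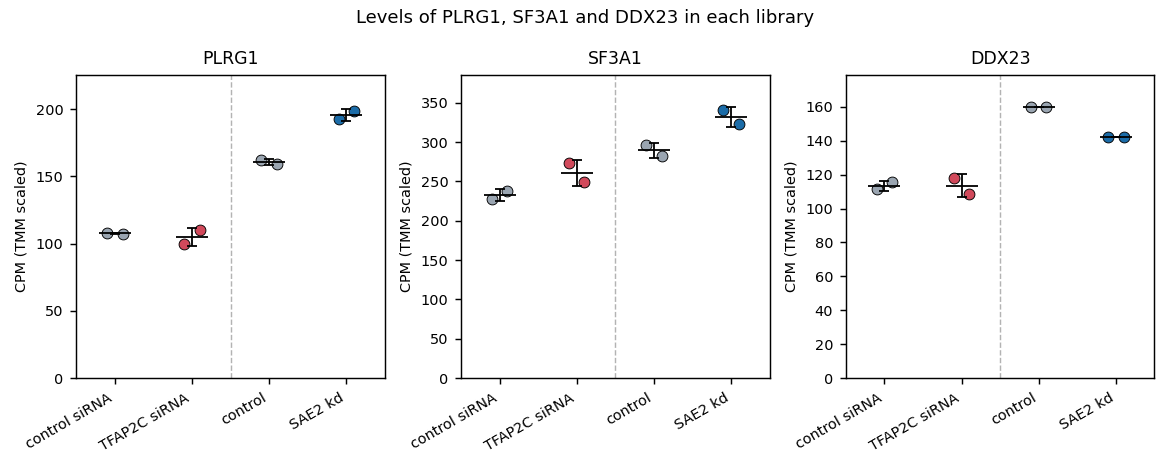
CPM of PLRG1, SF3A1 and DDX23 in each library (points), with the mean and SD of each group of 2; the dashed line separates the experiments, which were counted on separate tables. PLRG1 and SF3A1 lie higher and DDX23 lower in both SAE2 kd libraries than in both controls, and only SF3A1 has no overlap of TFAP2C siRNA with its controls.

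The genes lie on the minus strand of chromosome 4 (PLRG1, 154535005 to 154550400 on GRCh38), of chromosome 22 (SF3A1, 30331988 to 30356919) and of chromosome 12 (DDX23, 48829756 to 48852842). Their promoters are shown because these members passed the threshold and because TFAP2C binds DNA at promoters and enhancers; no binding at them was measured here. They hold the 250 bases before and the first 50 from the transcription start, from RefSeq on GRCh38.p14, 5′ to 3′ on the gene's strand. The first window listed for a symbol was used. That of DDX23 lies wholly within the interval given above, so its RefSeq start is not the outer end of that interval. Positions relative to the start depend on this choice. Capitals mark each match, on either strand, to the AP-2 consensus GCCNNNGGC, to the ETS core CCGGAA or to the E-box CACGTG.
PLRG1, chr4:154550351-154550650, minus strand: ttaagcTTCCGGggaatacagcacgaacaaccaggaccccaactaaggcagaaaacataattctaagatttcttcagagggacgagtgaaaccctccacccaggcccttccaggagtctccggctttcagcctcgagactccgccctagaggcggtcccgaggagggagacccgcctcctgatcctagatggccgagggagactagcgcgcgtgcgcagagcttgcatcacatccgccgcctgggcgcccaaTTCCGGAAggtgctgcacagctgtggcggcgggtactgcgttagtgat
SF3A1, chr22:30356845-30357144, minus strand: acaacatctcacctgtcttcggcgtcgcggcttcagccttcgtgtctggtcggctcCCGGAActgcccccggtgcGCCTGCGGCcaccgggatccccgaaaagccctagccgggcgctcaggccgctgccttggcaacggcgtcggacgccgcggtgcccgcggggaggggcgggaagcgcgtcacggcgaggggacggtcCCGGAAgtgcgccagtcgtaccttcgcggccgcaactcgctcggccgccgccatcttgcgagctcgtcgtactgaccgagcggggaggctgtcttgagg
DDX23, chr12:48852114-48852413, minus strand: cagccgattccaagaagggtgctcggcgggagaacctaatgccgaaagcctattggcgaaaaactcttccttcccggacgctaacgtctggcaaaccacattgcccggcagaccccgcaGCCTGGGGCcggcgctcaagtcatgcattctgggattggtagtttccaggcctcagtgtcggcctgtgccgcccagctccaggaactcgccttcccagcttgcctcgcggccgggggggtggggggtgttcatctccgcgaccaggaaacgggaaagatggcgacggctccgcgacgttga

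The promoter of PLRG1 had ETS cores 244 bases before the start and, as an overlapping pair on opposite strands, beginning 2 and 4 bases after the start, with no match to the AP-2 consensus. That of SF3A1 had an AP-2 match, GCCTGCGGC, 175 bases before the start and ETS cores 194 and 49 bases before it. That of DDX23 had an AP-2 match, GCCTGGGGC, 131 bases before the RefSeq start used and no ETS core. Promoter sequences matched 41 of the 44 members by symbol, and SF3B3, PRPF3 and SNRPD1 were not among them. The AP-2 consensus occurred in 11 of the 41 (26.8%), against 23% of all 27305 promoters and 33% of the 9688 promoters of genes tested in both experiments. The ETS core occurred in 25 (61%), against 17.6% and 29.8%, and the E-box in 2 (4.88%), against 7.43% and 10.2%. The median GC content was 60.7% in the members, 58.3% in all promoters and 65.7% in those of genes tested in both. A match is a run of letters and says nothing of binding.

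No other member passed in SAE2 kd. In U1 snRNP, SNRNP70 was at 293 and 299 CPM in control and at 286 and 267 CPM in SAE2 kd, with both SAE2 kd libraries below both controls. SNRPC was likewise lower, at 87.8 and 87.2 CPM in control and 80.7 and 80.4 CPM in SAE2 kd. SNRPA, which binds U1 snRNA, was higher, at 138 and 142 CPM in control and 154 and 143 CPM in SAE2 kd. Their adjusted p were 0.220, 0.224 and 0.363. In the Sm core the log2 fold changes ran from -0.13 to -0.0039, below 0 in 7 of 7 genes under each of the 3 library scalings. Over all genes tested, 49.9% were above 0 with TMM and 5635 of 13381 with total counts alone. None of the 7 passed. SNRPF was the farthest of them from 0, at 72.0 and 74.0 CPM in control and 65.5 and 68.2 CPM in SAE2 kd (adjusted p = 0.215).

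In U2 snRNP the members other than SF3A1 had log2 fold changes from -0.14 to 0.071. SNRPA1, the U2-A′ protein, was at 18.1 and 16.2 CPM in control and 16.1 and 15.0 CPM in SAE2 kd (log2 fold change -0.14 ± 0.10 SE, adjusted p = 0.456). SF3A2, a partner of SF3A1 in the SF3A subcomplex, was at 158 and 162 CPM in control and 154 and 139 CPM in SAE2 kd (log2 fold change -0.13 ± 0.056 SE, adjusted p = 0.156), and it passed without SAE2 kd replicate 1 (adjusted p = 0.0226). Of the SF3A subcomplex, SF3A1 rose, while SF3A2 was lower and SF3A3 (157 and 152, then 160.0 and 165 CPM) higher without overlap and short of the threshold. The SF3B genes lay between -0.089 for SF3B4 and 0.040 for SF3B5 on the log2 scale. SF3B1 was at 696 and 656 CPM in control and 648 and 667 CPM in SAE2 kd, with overlapping groups. The subunits of U2AF overlapped as well, with log2 fold changes of 0.021 for U2AF1 and -0.060 for U2AF2.

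Among the U5 proteins other than DDX23, PRPF6, which bridges U5 and U4/U6, was at 157 and 160.0 CPM in control and 172 and 165 CPM in SAE2 kd (adjusted p = 0.329). PRPF8 (0.043), the unwinding helicase SNRNP200 (0.025), EFTUD2 (-0.030) and SNRNP40 (-0.072) were closer to 0 on the log2 scale. The tri-snRNP genes ran from -0.098 to 0.030, with PRPF31, which is mutated in a form of retinitis pigmentosa, at the low end. In the PRP19 complex, BCAS2, also named SPF27, was at 23.8 and 24.3 CPM in control and 24.7 and 27.7 CPM in SAE2 kd (log2 fold change 0.13 ± 0.086 SE, adjusted p = 0.420). PRPF19 (0.064), XAB2 (0.043), CRNKL1 (0.0032) and CDC5L (-0.020) were nearer to 0, and PLRG1 was the only one of the 6 to pass. Of the helicases, DDX46, which acts on U2 snRNP, was at 351 and 351 CPM in control and 323 and 338 CPM in SAE2 kd (adjusted p = 0.276). DHX15, DHX16 and DHX38 had log2 fold changes of -0.0020, 0.026 and -0.010, with overlapping groups.

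In all, 9 members were higher and 15 lower in SAE2 kd without overlap (54.5% of members, against 51.3% of all genes tested). All 3 members that passed are among the 18 whose proteins were recovered with TFAP2C, which is 16.7% of the 18. Of the other 26, 0 passed, where 9.98% of all genes tested did. The rule that picked the members names these 3 and was set with earlier results known, so the split is a description only. A link of recovery with response was not tested. These counts changed with the fit, as only PLRG1 passed in the fit of all 8 libraries and SF3A2, one of the 26, passed without SAE2 kd replicate 1. They also depend on which genes are members. The text of the study lists SF3B6, CWC27 and HNRNPA3 as recovered too. These are not members and did not pass in SAE2 kd (adjusted p = 0.363, 0.811 and 0.285 by edgeR). BUD31, PDCD7, SRPK2, TRA2A and HNRNPM, described below, passed in SAE2 kd and are not listed as recovered in that text. The median log2 fold change was -0.012 in the 18 and -0.032 in the 26. The summed level of the 44 members was 9741 ± 109 CPM in control and 9697 ± 139 CPM in SAE2 kd (SD, n = 2). In the other experiment it was 7078 ± 13.2 CPM in control siRNA and 7275 ± 254 CPM in TFAP2C siRNA. These differences are log2 ratios of -0.0065 and 0.040, beside a within-group SD of 0.019 and 0.036 on the same scale.

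The difference between the comparisons was tested with the 8 libraries fitted together, over the symbols that both tables share, as the log2 fold change of TFAP2C siRNA less that of SAE2 kd. None of the 44 members passed, where 2.37% of 13179 genes did (0.903% with a positive and 1.47% with a negative difference), and 6 had an unadjusted p under 0.05, against 14.1% of all genes. PLRG1 was the nearest, with -0.037 in TFAP2C siRNA, 0.28 in SAE2 kd and a difference of -0.33 ± 0.088 SE (95% interval -0.52 to -0.15, adjusted p = 0.0651). The difference was -0.044 for SF3A1 (95% interval -0.22 to 0.14) and 0.16 for DDX23 (-0.023 to 0.34). The other members with an unadjusted p under 0.05 were SNRPC, SNRPF, EFTUD2, SF3B4 and PRPF31, with differences of 0.29, 0.27, 0.22, 0.21 and 0.20. Without replicate 2 of TFAP2C siRNA, 8 members passed, where 11.6% of all genes did. SNRPB, SNRPC, SNRPF, SF3B3, SF3B4 and EFTUD2 then had a positive difference and PLRG1 and SF3B1 a negative one.

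Other splicing genes were read from 7 lists of 117 genes that are not members. Of these PRPF24 was not analysed here, and HNRNPH2 did not pass the filter in SAE2 kd. In TFAP2C siRNA 0 of 116 passed the threshold by edgeR, against 0.74% of all genes tested, and 3 had an unadjusted p under 0.05, against 12.6%. The 15 genes of snRNP assembly and import, such as the SMN complex genes and PRMT5, which methylates Sm proteins, had the highest median log2 fold change of the lists, 0.12. Their estimates were above 0 in 15 of 15 with TMM or DESeq2 scaling and in 12 with total counts alone. Over all genes tested, 49.1% were above 0 with TMM and 6215 of 14991 with total counts alone. GEMIN5 was at the high end of the 15, with 0.21. None of the 15 passed. Their median over the control mean was 0.13 on the log2 scale in replicate 1 of TFAP2C siRNA and 0.053 in replicate 2, and replicate 1 was the higher in 11 of 15. SR proteins and their kinases had the lowest median, -0.040.

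In SAE2 kd, 5 of 115 passed, 3 higher and 2 lower (4.35%, against the 9.98% of all genes tested). BUD31, a protein of the activated spliceosome, rose from 75.4 and 75.3 CPM in control to 92.6 and 94.5 CPM in SAE2 kd (log2 fold change 0.31 ± 0.059 SE, adjusted p = 0.000356). PDCD7, a protein of the U11/U12 snRNP of the minor spliceosome, rose from 59.7 and 58.8 to 67.8 and 67.6 CPM (0.19 ± 0.063 SE, adjusted p = 0.0452). SRPK2, a kinase of SR proteins, rose from 75.1 and 75.3 to 83.2 and 88.0 CPM (0.19 ± 0.060 SE, adjusted p = 0.0436). TRA2A, an SR-like regulator of alternative splicing, fell from 155 and 169 to 139 and 148 CPM (-0.18 ± 0.056 SE, adjusted p = 0.0394). HNRNPM, a pre-mRNA binding protein, fell from 563 and 582 to 525 and 506 CPM (-0.15 ± 0.043 SE, adjusted p = 0.0196). The groups did not overlap for these 5 genes, which was also so for 51.3% of all genes tested, in either direction. No gene of the LSm, exon junction or snRNP assembly lists passed, with medians of -0.015, 0.041 and -0.032.

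BUD31 was also the only 1 of 116 genes of these lists to pass in the test of the difference (0.862%, against 2.37% of all genes tested). Its log2 fold change was -0.044 in TFAP2C siRNA and 0.31 in SAE2 kd (difference -0.37 ± 0.089 SE, adjusted p = 0.0427). That call was lost with the replicate block and without any 1 library other than those of TFAP2C siRNA (adjusted p 0.152 to 0.224). The call of PDCD7 was lost with scaling by total counts (0.0866), by DESeq2 (0.217) and without any 1 of the 4 libraries, and that of SRPK2 with scaling by total counts (0.0849), by DESeq2 (0.181) and without any 1 library other than SAE2 kd replicate 1. TRA2A did not pass by DESeq2 (0.132) or without control replicate 2 or SAE2 kd replicate 1 (0.453 and 0.233), and HNRNPM did not pass without control replicate 2 or SAE2 kd replicate 2 (0.198 and 0.0954).

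**Figure D5:**
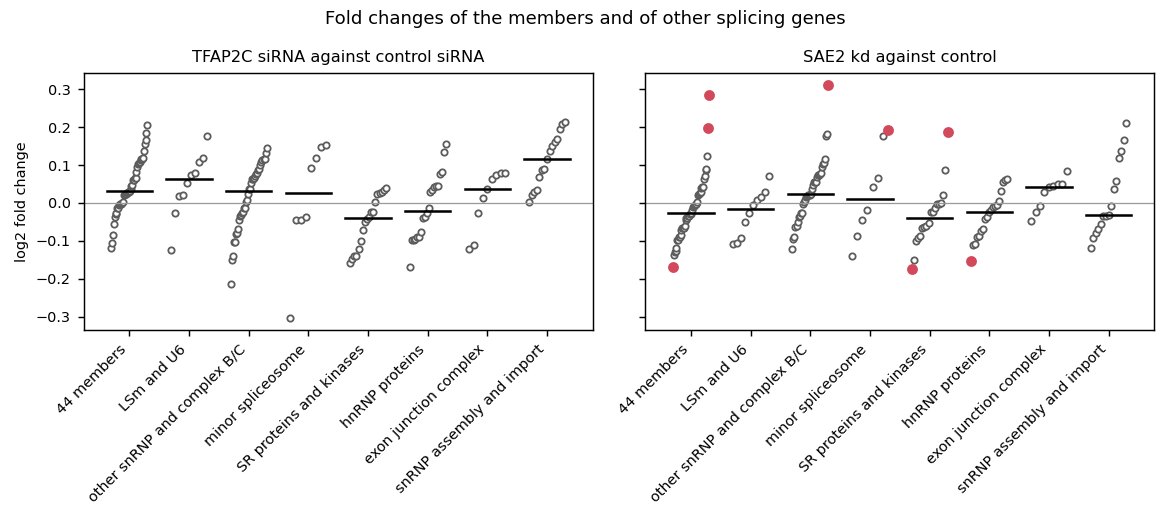
Log2 fold change of the 44 members and of the other splicing genes by list in both comparisons, with 1 point per gene in rising order, a black line at the median and filled red points for an adjusted p under 0.05. No point is filled for TFAP2C siRNA, and 3 members and 5 other genes are filled for SAE2 kd, with BUD31 the highest at 0.31.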

How the data were processed

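The deposited counts are whole reads per gene in each library, made by the authors from mRNA-seq reads that were aligned with TopHat2 and counted on genes with HTSeq (0.9.1 per the labels). The methods name hg19 and RefSeq genes, which fits the SAE2 kd table, whereas the TFAP2C siRNA table lists GRCh38 positions and Ensembl gene types. The strand setting and the treatment of reads shared by several genes were not given in the sources used here, and the tables were analysed separately. Of the value columns, 0 belonged to samples outside the series.

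Genes were filtered with filterByExpr, scaled by TMM and tested with the two-sided quasi-likelihood test of edgeR 4.0.16 in R 4.3.3 at package defaults, which in that version do not adjust the deviances. P-values were adjusted by Benjamini-Hochberg over all genes tested, with a threshold of 0.05. Intervals of fold changes were taken at 95% from the moderated standard error. The difference between the comparisons was fitted over all 8 libraries. The fits were tested first on simulated data in which 200 genes were changed, with the same dispersion for every gene. At a log2 fold change of 0.3, 15.9% of them were recovered for TFAP2C siRNA, 64.8% for SAE2 kd and 2% for the difference. At 0.5 these shares were 79.2%, 89.7% and 57.3%, and at 1 they were 99.4%, 99.8% and 95.1%. Of the calls of the difference at 0.3, 15.28% were false.

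Alternatives were the Wald test of DESeq2 1.42.0, its size factors or total counts in edgeR, no filter or at least 10 counts in every library, the fit with adjusted deviances, a replicate block, and each library left out in turn. Levels in counts per 1000000 reads (CPM) per kb used the length in each table or the exon length of GENCODE. Promoters were those of RefSeq on GRCh38.p14, 250 bases before and 50 from the start, matched by symbol.

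The members and lists were chosen with earlier results of these data known. Values per library were given for members that passed the threshold and for the 3 highest and 3 lowest log2 fold changes of each comparison. They were also given for the highest and lowest member per kb and for PLRG1, SF3A1 and DDX23. The rule that picked the members names these 3, which the study lists together with the other recovered proteins. Of the other lists, up to 3 genes each way that passed were given values. Further members, such as SF3A3, PRPF8, PRPF19, PRPF6, DDX46, SNRPA, SNRNP70 and SNRPF, were given values after theirs had been seen. The other lists came to 117 genes in all.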

Additional observations from a re-analysis of the deposited data

Results flagged for a closer look

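BUD31, a protein of the activated spliceosome, had a log2 fold change of -0.044 in TFAP2C siRNA and 0.31 in SAE2 kd. It alone of 116 genes of the other lists passed in the test of the difference (0.862%), against 2.37% of all genes tested. The difference, TFAP2C siRNA less SAE2 kd, was -0.37 ± 0.089 SE (adjusted p = 0.0427, quasi-likelihood test of edgeR over 13179 genes), and it was between -0.40 and -0.33 under all alternatives run for it. Its adjusted p was 0.152 to 0.224 in the fits in which the call was lost.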

How the results depend on the processing

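No member passed the threshold for TFAP2C siRNA under any alternative other than the left-out libraries, which gave 0 to 10 members, and for the difference of the comparisons these gave 0 to 8. For SAE2 kd the 3 members became 1, PLRG1, in the fit of all 8 libraries, 2 by DESeq2 and 1 to 2 with 1 library left out. The log2 ratio of the summed level was 0.0042 to 0.078 for TFAP2C siRNA and -0.020 to 0.0088 for SAE2 kd with 1 library left out, and -0.032 for SAE2 kd with total counts alone. With GENCODE exon lengths SNRPD2 was at 179 CPM per kb in the TFAP2C siRNA table and 130.3 in the SAE2 kd table, and SNRPG at 8.70, no longer the lowest there. Over all genes tested, the 111 calls of TFAP2C siRNA became 398 with no filter and 271 in the fit of all 8 libraries (49 to 2825 with 1 library left out), and the 1336 of SAE2 kd became 656 by DESeq2 and 696 in the fit of all 8 (833 to 1271). The 313 calls of the difference became 113 to 1554 with 1 library left out. The share of calls that were higher was 35.1% for TFAP2C siRNA and 46.9% by DESeq2, and 55.2% for SAE2 kd, 68.0% by DESeq2. Among the genes given values, 5 estimates that had not passed turned their sign. In TFAP2C siRNA the log2 fold change of DDX23 was 0.0014 with DESeq2 size factors, 0.0054 with no filter and 0.0069 by DESeq2. With 1 library left out it was -0.061 to 0.062 for DDX23, -0.28 (adjusted p = 0.000361) to 0.031 for SF3B1 and -0.10 to 0.030 for PLRG1 in TFAP2C siRNA, -0.11 to 0.038 for UBA2 in SAE2 kd, and -0.088 to 0.010 for SF3A1 in the difference. The cause of these moves was not tested.

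Over all genes, replicates with the same number did not deviate together (correlation of their deviations from the group means -0.18 in the TFAP2C siRNA and 0.016 in the SAE2 kd experiment), so the numbers were taken as names only. Over the 44 members this correlation was -0.48 and 0.31. With the replicate block, 0 members and 172 genes passed for TFAP2C siRNA, 2 members (DDX23 lost) and 1308 genes for SAE2 kd, and 0 members and 173 genes for the difference. With the numbers crossed, a pairing chosen after seeing the data, these were 0 members and 467 genes, and 3 members and 1708 genes. The alternatives for the summed level were also chosen after seeing the data. With 2 libraries in each group, small changes can be missed, and U2AF1 in the TFAP2C siRNA table is limited by its low read counts.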
